A study of Mus musculus with 26 samples.

Results

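5-hydroxymethylcytosine (5hmC) in RNA was mapped in mouse embryonic stem cells (ESCs) and embryoid bodies by hMeRIP-seq, in which fragmented total RNA is immunoprecipitated (IP) with an anti-5hmC antibody and sequenced. The peaks described here are those that fell in coding sequence (CDS). A peak was kept when the midpoint of its listed interval, taken as the summit, lay inside the CDS of a protein-coding transcript (build mm9, GENCODE M1), and kept intervals that overlapped by at least 1 bp in any of the 13 IP libraries were merged into a region. This gave 4469 CDS regions from 11347 peaks, of 23367 regions and 56538 peaks in all. A region was present in a library when the library had a CDS peak in it. The regions lay in 2616 genes, or 11.7% of the 22372 coding genes.

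The 13 libraries fall into 5 groups. WT ESC were wild-type ESCs grown with leukemia inhibitory factor (LIF), TKO ESC were ESCs in which Tet1, Tet2 and Tet3 are all knocked out, and WT EB were embryoid bodies formed from wild-type ESCs over 4 days without LIF, with 3 libraries each. Tet2-KI ESC were wild-type ESCs edited to carry a triple tag (Flag, HA and Twin-Strep) at the C terminus of the endogenous Tet2, and Tet2deltaRBD-KI ESC carried the same tagged Tet2 without its RNA-binding domain, with 2 libraries each. The knock-in cells were grown from picked clones, so a group may stand for 1 clone. The labels do not say whether replicates came from separate cultures, while the study describes its sequencing experiments as independent biological replicates. P-values measure the spread between these libraries. In the first 3 groups, replicates 2 and 3 carry the prefix 1703 in their descriptions, replicate 1 of WT ESC and TKO ESC the prefix 1608, and replicate 1 of WT EB the prefix 1610. These prefixes are treated as batches, although the labels do not say what they mark. Peak lists ran from 498 to 10383 peaks per library, the shortest being replicate 1 of WT EB and of TKO ESC, and the read depth behind them is unknown. Because only peaks were listed, gene expression and the cell type labels could not be checked, and a region without a peak is one in which none was called.

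Ten-eleven translocation (Tet) enzymes oxidise the methyl group of 5-methylcytosine to form 5hmC, in DNA and also in RNA. The CDS is the part of a messenger RNA that is read by the ribosome in codons, and it is spread over exons that are joined when introns are removed from the nascent transcript. Splicing factors, chromatin remodellers and nucleolar proteins, which recur below, often contain long runs of charged residues, and the codons of glutamate (GAA, GAG) and lysine (AAA, AAG) are made of purines alone.

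The CDS regions present in the most libraries were purine-rich. In 21 regions all 13 libraries had a CDS peak, and the 5 of these with the highest fold enrichment (FE, IP over input at the summit, averaged over the 9 libraries that list it, all but the knock-ins) lay in Htatsf1, Hmgn5, Mdc1, Baz1b and Srcap. Their sequences are shown over the 200 bp interval of 1 library, read 5′ to 3′ on the strand of the gene from build mm9. They lie in the purine-rich part of the members and do not stand for the typical one. Capitals mark the longest run of purines. The intervals are chrX:54319646-54319845 (plus strand) for Htatsf1, chrX:106200862-106201061 (minus strand) for Hmgn5, chr17:35987579-35987778 (plus strand) for Mdc1, chr5:135693944-135694143 (plus strand) for Baz1b and chr7:134673950-134674149 (plus strand) for Srcap.
Htatsf1: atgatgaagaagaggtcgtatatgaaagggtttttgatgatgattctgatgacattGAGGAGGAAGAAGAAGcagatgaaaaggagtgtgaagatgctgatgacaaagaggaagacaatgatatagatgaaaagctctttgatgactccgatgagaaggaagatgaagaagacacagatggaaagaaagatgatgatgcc
Hmgn5: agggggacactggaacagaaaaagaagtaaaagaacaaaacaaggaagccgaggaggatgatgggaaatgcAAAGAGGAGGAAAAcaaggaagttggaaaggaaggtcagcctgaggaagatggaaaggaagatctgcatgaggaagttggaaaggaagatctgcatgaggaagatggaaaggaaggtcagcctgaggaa
Mdc1: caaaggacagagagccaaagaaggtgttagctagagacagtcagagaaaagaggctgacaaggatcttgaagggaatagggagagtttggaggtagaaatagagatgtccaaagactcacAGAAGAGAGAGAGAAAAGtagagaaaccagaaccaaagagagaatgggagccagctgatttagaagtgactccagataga
Baz1b: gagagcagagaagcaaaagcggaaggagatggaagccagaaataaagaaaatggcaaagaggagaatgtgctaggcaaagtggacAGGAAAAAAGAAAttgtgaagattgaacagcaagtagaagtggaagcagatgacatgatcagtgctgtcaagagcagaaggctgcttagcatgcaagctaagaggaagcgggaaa
Srcap: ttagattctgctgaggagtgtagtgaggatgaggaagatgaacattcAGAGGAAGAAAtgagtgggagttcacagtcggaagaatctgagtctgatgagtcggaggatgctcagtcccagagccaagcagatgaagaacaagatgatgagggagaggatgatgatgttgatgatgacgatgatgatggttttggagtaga
Pyrimidines made up 28.5% of the Htatsf1 interval, 20% of Hmgn5, 26% of Mdc1, 24% of Baz1b and 32.5% of Srcap. The median over the 3700 regions with a full 200 nt of CDS around the summit was 38.5%. The longest purine run was 16 nt in Htatsf1, 14 nt in Hmgn5, 18 nt in Mdc1, 13 nt in Baz1b and 11 nt in Srcap.

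For contrast, 3 regions that were not present in all libraries are shown in the same way. Arhgap30 (chr1:173338397-173338596, plus strand) and Muc6 (chr7:148822456-148822655, minus strand) had a peak in all 3 WT ESC libraries and in no WT EB library, and Smc4 (chr3:68826137-68826336, plus strand) had a peak in both Tet2-KI ESC libraries and in no Tet2deltaRBD-KI ESC library. The Smc4 interval is not confined to 1 coding exon.
Arhgap30: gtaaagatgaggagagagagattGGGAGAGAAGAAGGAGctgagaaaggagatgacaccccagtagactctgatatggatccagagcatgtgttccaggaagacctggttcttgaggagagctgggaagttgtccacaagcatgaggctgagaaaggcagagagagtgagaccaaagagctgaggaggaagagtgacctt
Muc6: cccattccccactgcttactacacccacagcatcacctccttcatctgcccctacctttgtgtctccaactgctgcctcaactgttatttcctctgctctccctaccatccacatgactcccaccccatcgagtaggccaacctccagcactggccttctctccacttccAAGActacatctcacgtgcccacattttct
Smc4: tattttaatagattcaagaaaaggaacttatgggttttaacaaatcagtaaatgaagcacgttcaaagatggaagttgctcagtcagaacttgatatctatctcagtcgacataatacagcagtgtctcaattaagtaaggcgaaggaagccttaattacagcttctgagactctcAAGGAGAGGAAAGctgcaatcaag
Arhgap30 was again rich in purines, with 30% pyrimidines and a purine run of 16 nt. Muc6 was the opposite, with 71% pyrimidines and no purine run over 4 nt, and Smc4 lay between them at 42%.

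Htatsf1, a cofactor of transcription elongation and splicing, had the highest mean FE of the regions present in all libraries (X, 54319430 to 54319914, exon 9 of 9). Its FE was 14.2, 37.3 and 33.4 in replicates 1 to 3 of WT ESC. The TKO ESC values were 14.9, 59.0 and 32.7, and those of WT EB 5.55, 30.7 and 55.0. In each of these groups replicate 1, which carries another batch prefix, was the lowest, and the groups overlapped. Hmgn5, a nucleosome-binding protein, had an FE that came to 13.6, 35.8 and 27.4 (WT ESC), 11.2, 32.8 and 23.2 (TKO ESC), and 5.21, 23.7 and 20.9 (WT EB). Mdc1, a scaffold of the DNA damage response, had 35.8, 24.6 and 11.9 (WT ESC), 9.56, 12.9 and 30.4 (TKO ESC), and 4.88, 14.6 and 12.4 (WT EB). The WT EB values of Mdc1 reached into the lower part of the WT ESC range.

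Baz1b, a chromatin remodelling subunit, had a mean FE of 20.5 ± 9.79 for WT ESC, compared with 14.3 ± 6.50 (TKO ESC) and 10.9 ± 5.25 (WT EB; SD over 3 libraries). Srcap, the ATPase that exchanges histone H2A.Z, had 10.9 ± 2.83, 13.3 ± 5.07 and 12.6 ± 7.32 in the same order. For both genes the ranges of the 3 groups overlapped. The other regions present in all 13 libraries included genes of ribosome biogenesis (Ftsj3, Gtpbp4, Bms1), of splicing (Prpf38b, Pnn and Snrnp70, the last with 2 regions), Eif3a, a subunit of translation initiation factor eIF3, with 2 regions, nucleolin (Ncl), with 2, and Ythdc1, a reader of N6-methyladenosine. Their mean FE ran from 3.39 in Ncl to 10.3 in Ccdc55. All 3 TKO ESC libraries are among the 13, so each of these regions was called in cells without Tet1, Tet2 and Tet3.

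Most CDS regions were seen once. Of the 4469, 2454 (54.9%) had a peak in 1 library, 358 (8.01%) in at least 7, and 234 in at least 1 library of each group. Over all regions of the series the shares were near these, with 53.6% in 1 library and 6.03% in at least 7. The number of libraries with a peak went with peak height and base composition. An FE was listed for 1039 of the 2454 regions of 1 library, since the knock-in lists give none. The median FE was 5.62 in these, 7.93 in regions of 7 to 9 libraries and 9.82 in those of 10 to 12. It was 5.71 in the 21 regions of all 13. Over all regions of each class, the median pyrimidine share of the CDS within 100 nt of the summit was 41%, 34.5%, 30% and 28% in the same order. The median coding length of the exon was 183, 316, 331 and 679 bases, but this measure is not independent of the rule, since in a short exon a summit can fall outside the CDS and the library is then not counted. When any overlapping peak counted as present, an alternative added after the data were seen, the median exon lengths were 205, 189, 214 and 427 bases in regions of 1, 7 to 9, 10 to 12 and 13 libraries, and the increase was then seen mainly in the 31 regions of all 13. The pyrimidine share was then 42%, 34%, 31% and 28%. These are descriptions over regions, which share libraries and genes.

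The CDS share of the peaks in coding genes was compared between groups. A share also depends on the number of peaks outside the CDS, given below for introns, and so cannot show that peaks moved. The share was 23.5%, 17.9% and 18.2% for the WT ESC replicates (19.9% ± 3.12, SD, n = 3). For TKO ESC it was 38.3%, 26.4% and 25.7% (30.1% ± 7.10, SD, n = 3). Each TKO ESC library was above each WT ESC library, a difference of 10.3 percentage points (two-sided exact permutation test, p = 0.1, the smallest value that 3 libraries against 3 can give). The WT EB replicates had 30.1%, 40.4% and 40.3% (36.9% ± 5.91, SD, n = 3). Each WT EB library was above each WT ESC library too, by 17.1 points on average (exact permutation p = 0.1). Within the 1703 batch mean shares were 18.1% (WT ESC), 26.0% (TKO ESC) and 40.4% (WT EB; n = 2 each, exact permutation p = 0.333 for either comparison, the smallest possible), and the 1608 batch gave 23.5% for its WT library and 38.3% for its TKO library.

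In the knock-in cells the groups overlapped. The CDS share was 23.2% and 20.9% in Tet2-KI ESC and 19.2% and 29.3% in Tet2deltaRBD-KI ESC, so that the Tet2-KI values lay inside the range of the others (difference of 2.17 points, higher in Tet2deltaRBD-KI ESC, exact permutation p = 1, n = 2 each). Without Tet2deltaRBD-KI ESC replicate 2 the direction turned, with Tet2-KI ESC 2.89 points higher. With 2 libraries against 2 no p-value below 0.333 is possible.

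**Figure D1:**
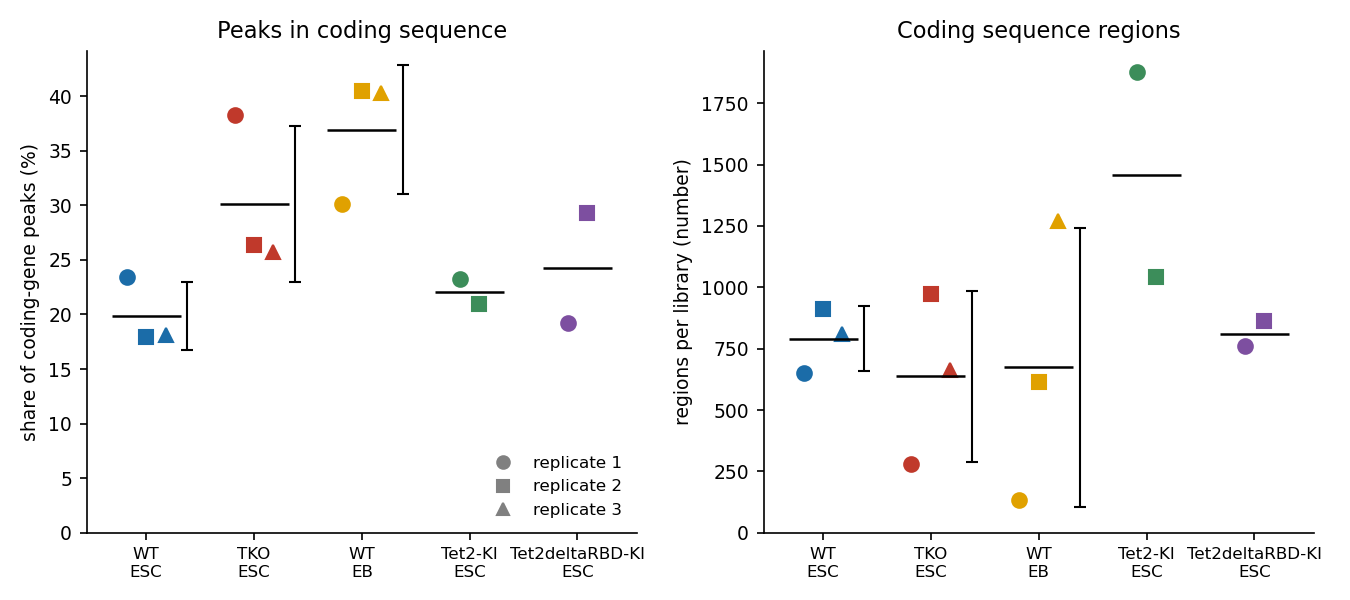
CDS share of the peaks in coding genes (left, %) and number of CDS regions (right) for each library, with 1 point per library (circle, square and triangle for replicates 1, 2 and 3), the group mean as a line and the SD as a bar for the groups of 3. All TKO ESC and WT EB points in the left panel, from 25.7% to 40.4%, lie above the WT ESC points, which end at 23.5%, whereas in the right panel WT ESC overlaps with TKO ESC and with WT EB, and both Tet2-KI ESC points (1042 and 1875) lie above those of Tet2deltaRBD-KI ESC (759 and 862).

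The numbers of CDS regions in WT ESC overlapped with those in TKO ESC and in WT EB. WT ESC libraries held 652, 912 and 810 regions, TKO ESC 279, 974 and 662, and WT EB 134, 616 and 1270. The mean log2 number was 0.47 higher in WT ESC than in TKO ESC and 0.73 higher than in WT EB (exact permutation p = 0.7 for both). Neither direction was stable: without TKO ESC replicate 1 the first difference was -0.035, and without WT EB replicate 1 the second was -0.17. Tet2-KI ESC held 1875 and 1042 regions and Tet2deltaRBD-KI ESC 759 and 862, so both tagged full-length libraries were higher. The log2 difference was 0.79 (exact permutation p = 0.333, the smallest that 2 libraries against 2 allow), with values from 0.37 to 1.21 when 1 library was left out. The lists differed more in introns than in the CDS. Intronic peaks averaged 3175 ± 1079 for WT ESC, 1662 ± 1172 for TKO ESC and 974 ± 775 for WT EB (SD over 3 libraries), whereas CDS peaks averaged 833 ± 127, 673 ± 362 and 705 ± 592.

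Presence was then compared region by region. Of 241 CDS regions with a peak in all 3 WT ESC libraries, 34 (14.1%, exact Clopper-Pearson 95% interval 9.97 to 19.2%) lacked a peak throughout TKO ESC. Over all regions of the series the share was 32.2%, and over the regions with no CDS peak it was 38.2% (454 of 1190). Against WT EB, 54 of the 241 (22.4%, 17.3 to 28.2%) had no peak, compared with 54.9% of all regions and 65% of those with no CDS peak. These comparisons share the WT ESC libraries. The intervals cover counting error only, and no test between the classes of regions was made because they come from the same libraries. The CDS share was lower than that of the other regions in each set of libraries tried, from 17.4 against 46.7% to 27.8 against 50.3% for TKO ESC, and from 25.7 against 74.4% to 34.3 against 73.2% for WT EB, but the values themselves depended on the libraries, and both were highest within the 1703 batch.

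Few CDS regions went the other way when all replicates were used. TKO ESC had 117 replicated CDS regions, and each had a peak in at least 1 WT ESC library (0 of 117, upper limit of the exact interval 3.10%), where 1.73% of all regions had none. WT EB had 40, of which 1 (2.50%, 0.0633 to 13.2%) had no WT ESC peak, against 2.61% of all regions. Both values rest on replicate 1 of these groups, which held 279 and 134 CDS regions. Without TKO ESC replicate 1 the share was 19.8% (83 of 420), against 18.9% (193 of 1023) of the regions with no CDS peak. Without WT EB replicate 1 it was 24.0% (114 of 475), against 24.1% (134 of 557).

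The WT ESC regions with no TKO ESC peak had lower FE than those with one, with a median over regions of 5.26 against 6.48 in WT ESC. They also lay more often in the first of several coding exons, in 13 of 34 (38.2%) against 31 of 207 (15.0%). Against WT EB the medians were 5.11 and 6.91, and 18 of 54 (33.3%) against 26 of 187 (13.9%) lay in the first coding exon. The part of peak height and list length in the calls was not tested.

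Among the 34 regions with no TKO ESC peak, the 5 with the highest FE in their lowest WT ESC library were in Ivns1abp, Mcart1, Gtpbp6, Smc3 and Sltm. Ivns1abp, a kelch-repeat protein (1, 153210291 to 153210509, last exon), had an FE of 8.16, 10.7 and 9.97 in WT ESC, had peaks in 2 of 3 WT EB and both Tet2-KI ESC libraries, and had none in Tet2deltaRBD-KI ESC. Mcart1, a mitochondrial carrier (4, 45421157 to 45421467), had 10.7, 6.61 and 18.6 in WT ESC and a peak in all 4 knock-in libraries. It was not kept when the summit had to be coding in every coding transcript. Gtpbp6 (5, 110536921 to 110537149, exon 1 of 10) had 9.32, 7.28 and 6.53 in WT ESC and no peak in either TKO ESC or WT EB.

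Smc3, a cohesin subunit (19, 53696227 to 53696478, exon 9 of 29), had an FE of 5.81, 6.76 and 9.01 in WT ESC and 17.7 and 14.6 in WT EB replicates 2 and 3, and no peak in the other 8 libraries. Another Smc3 region, in exon 13, had a peak in 12 of 13 libraries. So 1 gene held both a region without a TKO ESC peak and one with a peak in nearly all libraries. Sltm, an RNA-binding protein, also had another region that was present in all 3 TKO ESC libraries, and its region here was lost when the summit had to be coding in every coding transcript.

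Among the 54 regions with no WT EB peak, Arhgap30, a GTPase-activating protein (1, 173338276 to 173338694), had an FE of 16.0, 9.97 and 10.5 in WT ESC and of 4.05 and 5.89 in TKO ESC replicates 1 and 3. Muc6, a gastric mucin (7, 148822259 to 148823246), had 13.8, 12.6 and 7.55 in WT ESC and 5.98, 14.7 and 6.94 in TKO ESC. A longer Muc6 region in the same exon (148824065 to 148825767) was present in 12 libraries, 2 of them WT EB. Ppp4r2, a regulatory subunit of protein phosphatase 4, had an FE of 8.42 ± 1.19 in WT ESC, Gtpbp6 7.71 ± 1.44, and Cstf2t, a 3′ end processing factor, 6.97 ± 0.951 (SD over 3 libraries). The Cstf2t region was not kept when the summit had to be coding in every coding transcript.

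The single CDS region present in all 3 WT EB and no WT ESC library lay in Hnrnpa2b1, an hnRNP that binds pre-mRNA (6, 51416119 to 51416624, exon 5 of 10). Its FE was 4.36, 8.25 and 8.59 in WT EB and 5.15 and 5.16 in TKO ESC replicates 1 and 2. The distinction was one of summit position, since all 13 libraries had some peak overlapping this region when peaks with summits outside the CDS were counted.

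The knock-in comparison asked which CDS peaks depend on the RNA-binding domain of Tet2. Of 596 CDS regions present in both Tet2-KI ESC libraries, 231 (38.8%, 34.8 to 42.8%) had no Tet2deltaRBD-KI ESC peak, against 35.6% of all regions. Of 299 present in both Tet2deltaRBD-KI ESC libraries, 62 (20.7%, 16.3 to 25.8%) had no Tet2-KI ESC peak, against 15.8% of all regions. The first share is near that of the series. Both depended on single libraries. Leaving out 1 library moved the first share to between 43.1 and 71.2%, where the regions with no CDS peak moved to between 41.1 and 70.7%. The second share moved to between 30.1 and 61.0%, where the others moved to between 26.1 and 46.4%. It was highest without Tet2deltaRBD-KI ESC replicate 1, at 61.0 against 46.4%. Without Tet2deltaRBD-KI ESC replicate 2 the order turned, with 30.4% (231 of 759) against 32.4% (1140 of 3516) of the regions with no CDS peak.

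The 5 regions with no Tet2deltaRBD-KI ESC peak that had the highest WT ESC FE were in Smc4, Ccar1, Thoc2, Ankrd12 and Prr5. Smc4, a condensin subunit (exon 10 of 23), had an FE of 18.7 and 11.3 in WT ESC replicates 2 and 3, 19.9 and 28.6 in TKO ESC replicates 2 and 3, and 20.9 and 28.8 in WT EB replicates 2 and 3. It had no peak in replicate 1 of these groups, and the TKO ESC and WT EB values lay above those of WT ESC. Ccar1, a regulator of cell cycle and apoptosis, had a mean FE of 14.9 ± 4.07 over the WT ESC libraries and 21.9 ± 13.2 over those of TKO ESC (SD, n = 3). Thoc2, a subunit of the TREX complex of mRNA export, had a peak in 7 libraries by the rule used, but in 11 when any overlapping peak was counted. Ten-eleven translocation 2 itself was in this set: 1 Tet2 region (3, 133132325 to 133132530, exon 9 of 10) had a peak in both Tet2-KI ESC libraries and in none of the other 11. Tet2 is the gene edited in both knock-in groups, so this pattern cannot be told apart from the edit. Of the 596 regions present in both Tet2-KI ESC libraries, 73 had a peak in no other library. No CDS region was found in Tet1 or Tet3.

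Many of the 62 regions of the opposite kind lay near the start of the CDS, with 29 in its first 10%. In 41 of them (66.1%) the summit was in the first of several coding exons, against 34.2% (81 of 237) of the Tet2deltaRBD-KI ESC regions that had a Tet2-KI ESC peak, and their median pyrimidine share was 46.5% against 37.5%. The 5 named by the rule were 1110008F13Rik, Rbm45, Rrs1, Atrn and Ash2l, each in exon 1 and at most 190 nt from the start codon. The Ash2l region was not kept when the summit had to be coding in every coding transcript. Rbm45, an RNA-binding protein (2, 76208118 to 76208501), also had an FE of 5.69, 4.75 and 6.18 in WT ESC and no peak in TKO ESC, WT EB or Tet2-KI ESC. Rrs1, a ribosome biogenesis factor, had an FE of 5.00 and 4.09 in WT ESC replicates 1 and 3 and 3.71 and 3.61 in TKO ESC replicates 1 and 3.

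Tet2deltaRBD-KI ESC replicate 2 stood apart in where its CDS peaks lay. In this library 39.6% of CDS peaks were in the first 10% of the CDS and 30.4% within 100 nt of the start codon, whereas the other 12 libraries had from 4.71 to 19.7% and from 1.37 to 13%. The first of several coding exons held 55.2% of its CDS peaks, against 25.6% in replicate 1 of the same group. The mean position along the CDS, from 0 at the start codon to 1 at the stop codon, was 0.298 in this library and 0.438 in replicate 1, and 0.475 and 0.485 in Tet2-KI ESC. The difference of 0.112 between the groups (exact permutation p = 0.333, n = 2 each, the smallest possible) was 0.042 without that library.

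Over all libraries the CDS peaks lay slightly before the middle of the CDS. The mean position minus 0.5 was -0.033, with 11 of 13 libraries below the midpoint (exact sign-flip permutation test over libraries, p = 0.00781), and the exceptions were TKO ESC replicate 2 (0.514) and WT EB replicate 2 (0.515). The result depended on the transcript used, since with the shortest coding transcript of each gene it was -0.015 (exact permutation p = 0.461). It was -0.019 without Tet2deltaRBD-KI ESC replicate 2 (exact permutation p = 0.0156). The mean was 0.472 ± 0.016 for WT ESC, 0.497 ± 0.019 for TKO ESC (exact permutation p = 0.2) and 0.489 ± 0.030 for WT EB (exact permutation p = 0.5, SD over 3 libraries), and the groups overlapped. By regions, each counted once, 18.8% lay in the first 10% of the CDS and 7.79% in the last 10%.

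**Figure D2:**
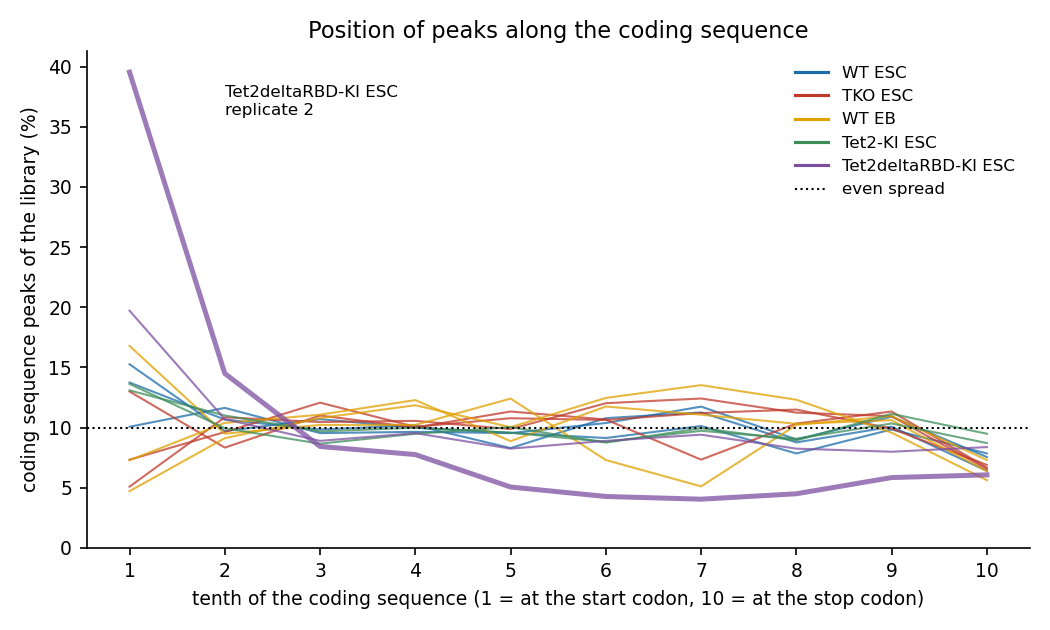
Share of the CDS peaks of each library (vertical axis, %) in each 10% step of the CDS, from the start codon (1) to the stop codon (10), with 1 line per library coloured by group and a dotted line at an even spread of 10%. The thick line, Tet2deltaRBD-KI ESC replicate 2, starts at 39.6%, and the lines of the other libraries start between 4.71 and 19.7%.

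Exon structure was looked at next. The first of several coding exons held 21.6% of regions and 9.95% of coding bases. By peaks its share was highest in Tet2deltaRBD-KI ESC replicate 2 (55.2%), and replicates 2 and 3 of TKO ESC (5.57 and 9.48%) and of WT EB (4.41 and 8.34%) were below the share of coding bases. Genes with a single coding exon held 4.18% of regions against 10.2% of coding bases. By peaks, exons with at least 500 coding bases held from 26.7 to 43.8% of the CDS peaks of a library, on average 5.97 points more than their 28.6% of coding bases (higher in 12 of 13 libraries, exact sign-flip permutation p = 0.00122). Among peaks whose summit was coding in every transcript the excess was 3.68 points (exact permutation p = 0.0156). The rule that a summit must be coding can itself drop peaks of short exons, and its part in this excess was not tested. Counted by regions the share in exons with at least 500 coding bases was 23.8%, below that of the coding bases. It was 19.8% among regions of 1 library and 61.9% among those of all 13, and 23.9 and 41.9% when any overlapping peak counted as present, since the summit rule itself lowers the number of libraries in short exons. The 200 bp intervals often ran past the exon: in 27.1% of regions every interval lay within 1 coding exon.

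The sequence of the windows was purine-rich in every library. The pyrimidine share of the CDS within 100 nt of the summits was 36.1% ± 0.397 in WT ESC (SD, n = 3), against 42.6% ± 0.0813 over the whole CDS of the same genes. In TKO ESC replicates 1 to 3 the window share was 33.9, 35.7 and 35.6%, and in WT EB 37.2, 34.5 and 37.3%. Over the 13 libraries the windows minus the whole CDS gave -6.21 points on average, from -8.0 in TKO ESC replicate 1 to -3.59 in Tet2deltaRBD-KI ESC replicate 2 (lower in 13 of 13 libraries, exact sign-flip permutation p = 0.000244, the smallest that 13 libraries can give). Compared with the 200 bp intervals of intronic peaks on the strand of the gene, those of CDS peaks differed by -2.20 points in pyrimidines (lower in 12 of 13 libraries, exact permutation p = 0.00342), and Tet2deltaRBD-KI ESC replicate 2 was 2.23 points higher. Both tests treat the 13 libraries as separate units, although they come from 5 groups and share many regions.

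**Figure D3:**
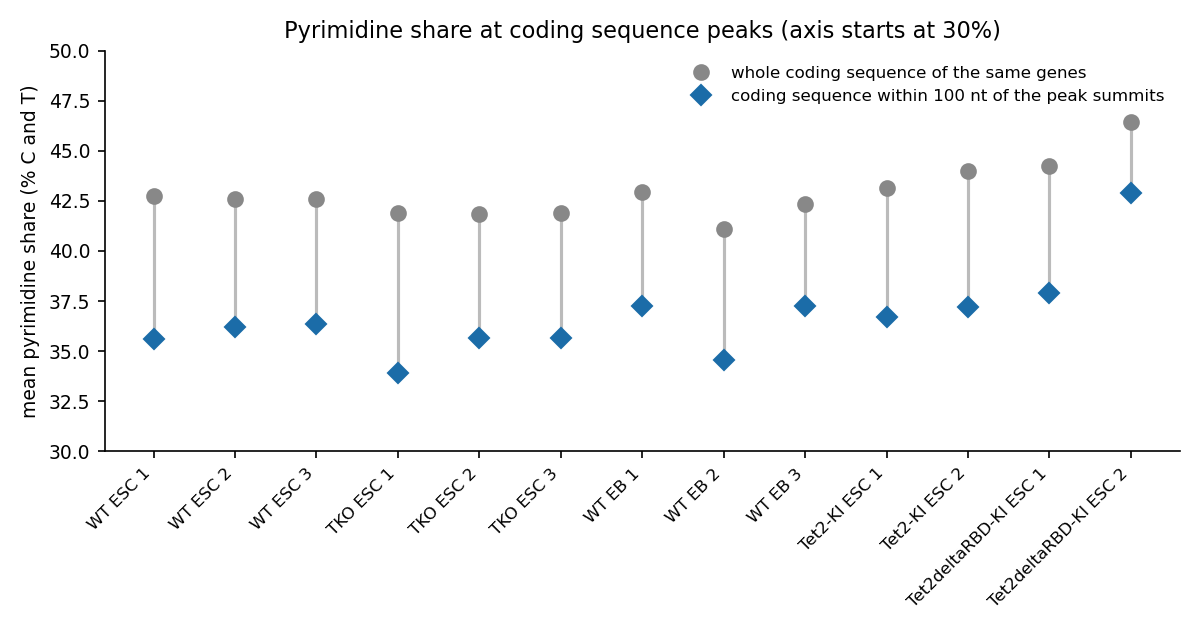
Mean pyrimidine share (%, axis from 30) of the CDS within 100 nt of the peak summits (diamonds) and of the whole CDS of the same genes (circles) for each of the 13 libraries. The diamonds lie below the circles in all 13, with differences from -8.0 to -3.59 percentage points.

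The hexamers of the windows showed the same composition. Among 3700 regions with a full window of 200 nt, GAAGAA was present in 39.9%, against 18.6% of 163980 windows that tile the CDS of all coding genes, and GAGGAG in 31.9% against 16.5%. Their reverse complements were scarcer than in the tiles, with TTCTTC in 3.54% against 8.98% and CTCCTC in 4.03% against 9.17%. The search was on the coding strand, and hexamers such as AAGAAG (39.2% against 17.7%) overlap GAAGAA. A purine run of at least 20 nt was found in 7.57% of windows and 1.05% of tiles. Cytosine, the base that carries the mark, made up 20.9% of the windows and 25.8% of the tiles. The tiles cover all coding genes and not only those with a peak. They averaged 48.2% pyrimidines, whereas the whole CDS of the genes with CDS peaks averaged from 41.1 to 46.5% by library. The part of the choice of genes in these differences was not tested. A match is a description of the letters and not of a binding site.

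Read in frame, the windows of 4342 regions, including those cut by the ends of the CDS, held more codons of charged residues than the CDS of 21331 genes. GAG made up 6.71% of codons in the windows and 3.98% over all coding genes, GAA 5.55% and 2.87%, AAA 3.82% and 2.32%, and AAG 4.76% and 3.35%. The glutamate and lysine codons together came to 20.8% against 12.5%. The 21331 genes include those with no peak, and the part of the choice of genes was not tested here either. TTC (phenylalanine), ATC (isoleucine) and CTC (leucine) were the codons with the largest deficit, and TTC made up 1.05% of codons in the windows against 2.10%. The library protocol marks no strand, so the strand was taken from the annotation, and 23 CDS peaks lay in coding sequence on both strands.

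Regions rich in pyrimidines were rare. A window with at least 65% pyrimidines was found in 7 of the 3700 full windows, or 0.189%, against 0.436% of the tiles. They included 2 of the 5 Muc6 regions and 1 in Polr2a, the large subunit of RNA polymerase II. The Polr2a region (11, 69548677 to 69548920) was 73.5% pyrimidine, and had a peak in each WT ESC library but in none of the other 10, at a mean FE of 2.45. Of the 241 regions present in all 3 WT ESC libraries, 6 had a peak in no other library. The median FE of CDS peaks in WT ESC libraries was higher, from 5.26 to 5.35.

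The height of CDS peaks was compared with that of other peaks of the same library. The median FE of CDS peaks was 5.35, 5.33 and 5.26 for WT ESC, 5.50, 7.35 and 6.80 for TKO ESC, and 4.53, 7.46 and 7.56 for WT EB. Its log2 differed by -0.10 from that of intronic peaks of the same library (lower in 5 of 9 libraries, exact sign-flip permutation p = 0.0898) and by -0.15 from that of 3′ UTR peaks (lower in 7 of 9, p = 0.0625 by the same exact test). In WT ESC it was lower than both in all 3 libraries. In the 99 CDS regions with a peak in all 6 WT ESC and TKO ESC libraries, the median log2 ratio of the mean FE in WT ESC to that in TKO ESC was -0.079, with quartiles of -0.44 and 0.19. In the 33 with a peak in all 6 WT ESC and WT EB libraries the same ratio to WT EB was 0.22, with quartiles of -0.21 and 0.38. By library, the median FE of these 33 was 5.59, 7.31 and 7.57 in WT ESC and 4.22, 7.35 and 7.67 in WT EB. Only WT EB replicate 1, which carries another batch prefix, lay below the WT ESC values. Both ratios share the WT ESC libraries.

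The share of genes with a CDS region differed widely between gene lists, which were written with earlier results of these data known and carry no test. A peak needs an expressed transcript, and expression was not measured in these files. Of splicing factors and SR-related proteins, 43 of 55 (78.2%) had a CDS region, of centrosome, kinetochore and chromosome structure proteins 34 of 45 (75.6%), and of chromatin remodellers and histone modifying enzymes 57 of 76 (75%). Golgins, tethers and large cytoskeletal proteins had 21 of 30 (70%), nucleolar and ribosome biogenesis factors 34 of 49 (69.4%) and chaperones 23 of 34 (67.6%). Among genes with a peak of any kind, the share with a CDS region was 36.3% over all coding genes and from 79.1 to 88.5% in these 6 lists. They were not set apart by this measure, which was 93.8% in histone genes, 100% in early differentiation genes (5 of 5) and 75.8% in DEAD and DEAH box helicases.

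The order of the lists changed when regions were counted by length. Per 1000 coding bases there were 0.127 regions over all coding genes, 1.04 in chaperones, 0.989 in splicing factors, 0.900 in histone genes, 0.809 in centrosome proteins, 0.421 in the golgins and 0.191 in ribosomal protein genes. The golgins had the longest CDS of the lists, with a median of 5774 bases. Chaperones were represented by Hsp90aa1, with 5 regions and a peak in 13 libraries, and by Hspa5, the chaperone BiP of the endoplasmic reticulum, with 2 regions in 11 libraries at a mean FE of 11.5. The splicing list was led by Hnrnpu, with 6 regions, Snrnp70, with 4, and Pnn, with 3, each covering 13 libraries.

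Other lists were lower. DNA replication and repair factors had 26 of 52 genes (50%), led by Mdc1 and by Top1, with 10 regions in 10 libraries, and DEAD and DEAH box helicases 25 of 54 (46.3%), led by Ddx10, with 5 regions in 13 libraries at a mean FE of 13.8. Pluripotency factors and regulators had 14 of 37 (37.8%), kinesins and myosins 26 of 81 (32.1%), translation factors 21 of 67 (31.3%), early differentiation genes 5 of 30 (16.7%) and zinc finger genes named Zfp 56 of 365 (15.3%). Ribosomal protein genes had 7 of 83 (8.43%), cadherins and protocadherins 0 of 59 (3 counts of 59 would be 5.08%), and olfactory receptors 1 of 1113 (0.0898%). The CDS of ribosomal protein genes is short, with a median of 468 bases against 1131 over all coding genes. Counted by length as above, ribosomal protein genes had more regions than all coding genes (0.191 against 0.127). The part of CDS length and of expression in these shares was not tested.

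**Figure D4:**
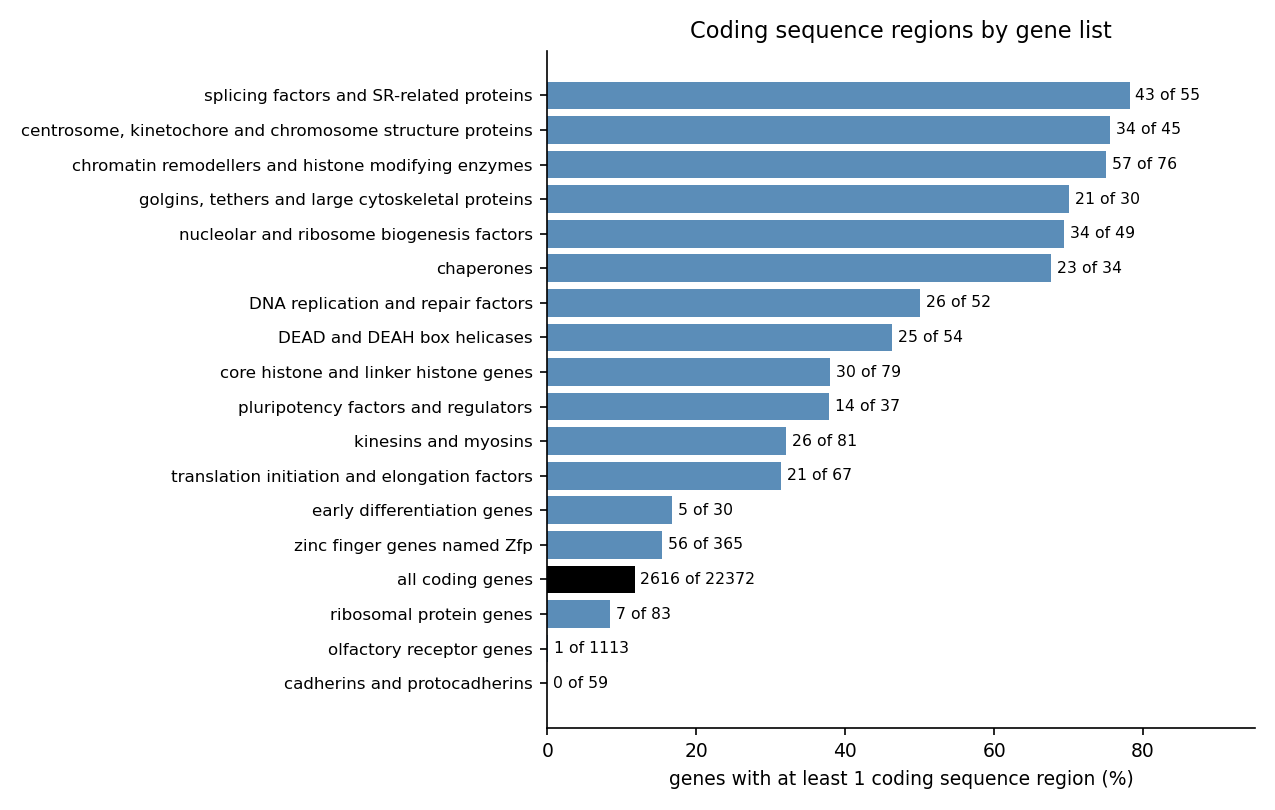
Share of the genes of each list with at least 1 CDS region (%), with the counts beside the bars and all coding genes in black at 11.7%. Splicing, centrosome, chromatin, golgin, nucleolar and chaperone lists lie at 67.6% or above, and ribosomal protein, olfactory receptor and cadherin lists lie below the bar of all genes. The shares are not corrected for CDS length.

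Within the pluripotency list L1td1, an RNA-binding protein of ESCs, had 5 regions that covered all 13 libraries, 3 of them present in all 3 WT ESC libraries. Rif1, a factor of telomeres and replication timing, had 6 regions in 8 libraries. Sox2 had 2 regions in 3 libraries, with none in WT ESC or TKO ESC. Of the transcripts the study drew attention to, Jarid2, a Polycomb cofactor (13, 44997956 to 44998255, exon 7 of 18), had a CDS region with an FE of 5.96, 8.15 and 5.66 in WT ESC and 4.34 in TKO ESC replicate 3, and no peak in WT EB. Paf1, a subunit of the RNA polymerase II-associated PAF complex (7, 29183772 to 29184016), had 6.04, 8.34 and 4.56 in WT ESC and 6.76, 10.1 and 4.99 in TKO ESC, and no peak in WT EB. The WT ESC and TKO ESC values of Paf1 overlapped.

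Sfpq, a splicing factor, had 6 regions and Smarcc1, a core subunit of the BAF chromatin remodelling complex, 7. The Sfpq region in the most libraries (10) had an FE of 4.43, 5.00 and 6.91 in WT ESC and a peak in 1 TKO ESC and 2 WT EB libraries. Of the Smarcc1 regions, the one in the first exon was present in all 3 WT ESC and no TKO ESC library, and one in exon 26 in 2 TKO ESC and no WT ESC library. Eed and Mbd3 had 1 region each, in 1 library each, and Dab1 and Cdh4 had none. The study called peaks over whole transcripts and placed most of them in introns, so these counts are not counts of its peaks. The Eed region had a peak in 6 libraries when any overlapping peak was counted, and that of Mbd3 was not kept when the summit had to be coding in every coding transcript.

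Histone genes were frequent in 1 WT EB library. Of 79 core and linker histone genes, 30 (38%) had a CDS region, with 31 regions in all, of which 24 were present in WT EB, 3 in WT ESC and 3 in TKO ESC. Of all 4469 CDS regions, 33.3% were present in WT EB, 35.4% in WT ESC and 29.6% in TKO ESC. All 24 WT EB regions came from replicate 3, at a median FE of 6.19, and replicates 1 and 2 had none. The Tet2-KI ESC libraries had 12 and 5, and the Tet2deltaRBD-KI ESC libraries 11 and 7. Histone genes are near-identical copies of each other, so the gene to which a read was assigned is uncertain.

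Centrosome, kinetochore and chromosome structure genes also varied with the library. They made up 3.68, 5.15 and 5.43% of the CDS regions of WT ESC replicates 1 to 3, 3.23, 7.80 and 6.04% in TKO ESC, and 1.49, 9.74 and 8.03% in WT EB. Within the 1703 batch the WT EB values were above those of WT ESC, and replicate 1 was lowest in each group. In the knock-in cells they made up 4.64 and 3.36% in Tet2-KI ESC and 2.50 and 1.16% in Tet2deltaRBD-KI ESC.

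Several transcripts held many regions. The genes with at least 3 regions, 390 of the 2616, held 39.7% of all regions. The highest numbers were 23 in Tpr, a component of the nuclear pore basket, 18 in Cenpf and 13 in Cenpe, kinetochore proteins, and 13 each in Atrx, a chromatin remodeller, and Kif20b, a mitotic kinesin. In Tpr no region was present in more than 9 libraries, and 6 were present in 1. The Tpr region in 9 libraries (1, 152286206 to 152286457) had an FE of 6.22, 8.12 and 7.58 in WT ESC, 4.25, 10.0 and 15.6 in TKO ESC, and 6.18 and 11.7 in WT EB replicates 2 and 3. The leading Kif20b region had an FE of 8.13, 14.6 and 11.9 in WT ESC, 28.3 and 19.8 in TKO ESC replicates 2 and 3, and 24.1 and 19.9 in WT EB replicates 2 and 3. In Kif20b all TKO ESC and WT EB values that were listed lay above the WT ESC values.

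The spread of the regions along the CDS differed from gene to gene. All 10 Eif3a regions lay beyond position 0.46, and 7 of them were present in at least 7 libraries. In Smc3 the 2 regions present in at least 7 libraries were in exons 11 and 13, at positions 0.243 and 0.311. In Ncl, whose CDS begins with acidic stretches, both regions of all 13 libraries lay at positions 0.241 and 0.331. Cenpf, by contrast, had regions from position 0.029 to 0.874, of which 4 were present in at least 7 libraries.

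**Figure D5:**
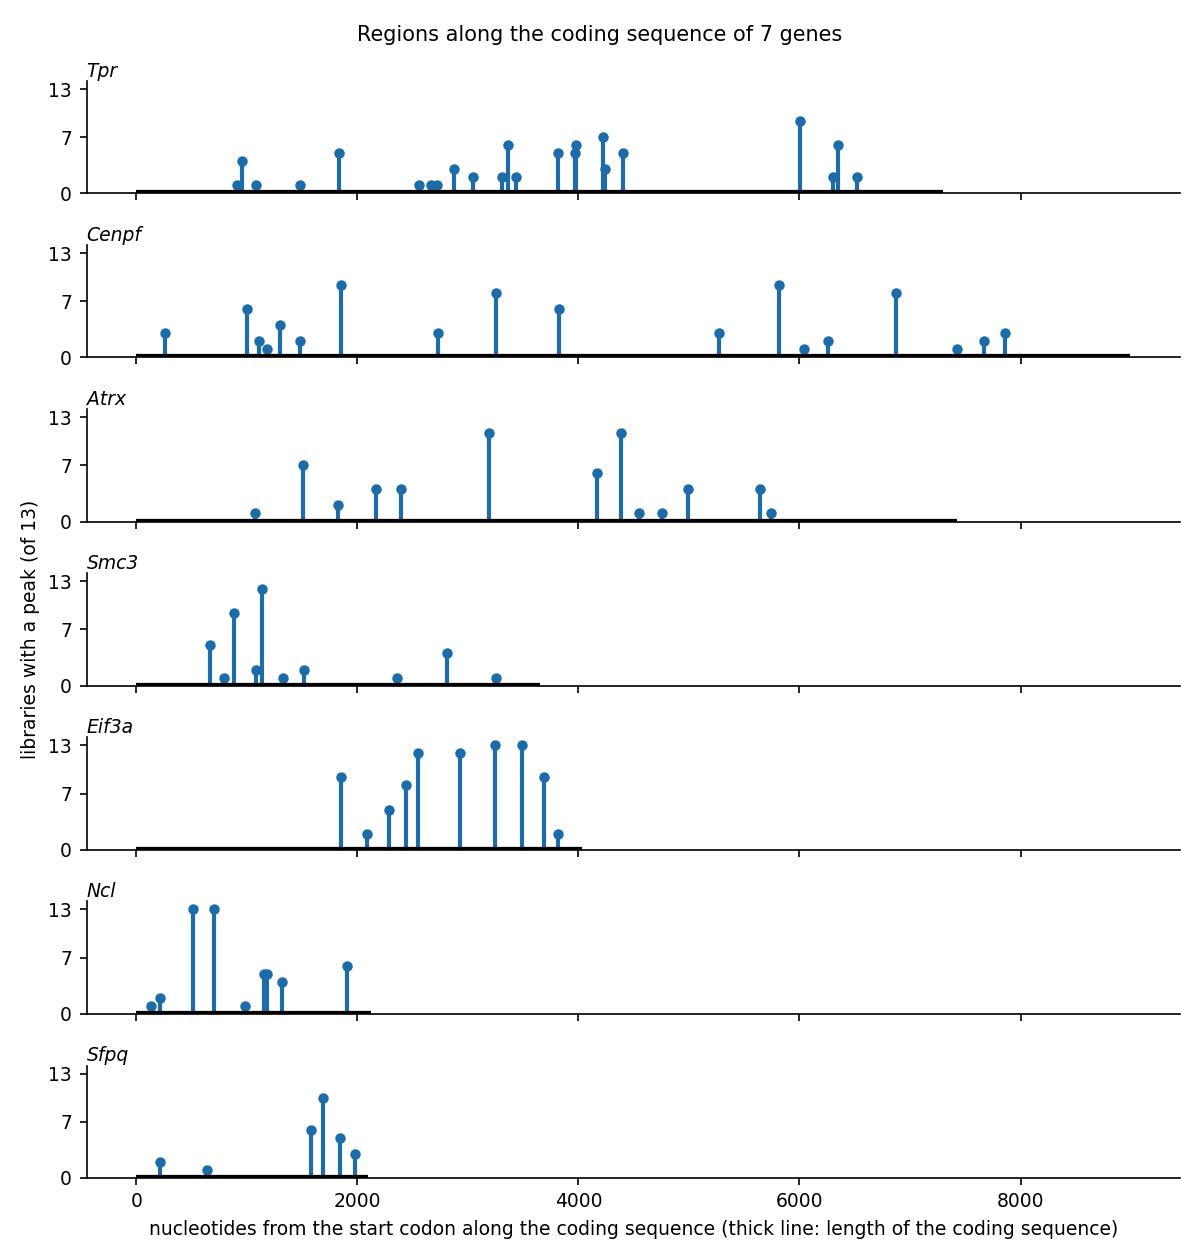
Position of each CDS region of 7 genes in nucleotides from the start codon (horizontal axis; the thick line is the length of the CDS) and the number of the 13 libraries with a peak in it (vertical axis). One Tpr region is placed by a shorter transcript. The Eif3a regions lie in the later part of the CDS and reach 13 libraries, whereas none of the 23 Tpr regions exceeds 9.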

How the data were processed

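Total RNA from WT, TKO and knock-in ESCs and from WT EBs was immunoprecipitated with an anti-5hmC antibody. The authors' processing notes name FastQC, Bowtie2, Trimmomatic, STAR, MACS2 and mm9. According to the methods, low-complexity, rRNA and tRNA reads were removed, reads were mapped to mm9 with RefSeq transcripts, and peaks of each IP library were called against its own input at a q-value below 0.05. Each deposited list holds the peaks of 1 library. The lists hold 200 bp intervals. In the 9 libraries other than the knock-ins a further column holds the fold enrichment, a ratio computed by the authors' peak caller. The 4 knock-in lists hold positions only. Depth is unknown, and the 13 input libraries were not analysed on their own.

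Peaks were annotated with GENCODE M1 on NCBIM37, the assembly of mm9, using Python 3.11.15, pandas 2.3.3, numpy 2.4.6, scipy 1.17.1 and samtools 1.23.1. Position and exon were taken from the longest coding transcript that held the summit. Groups were compared by two-sided exact permutation tests over libraries, and measures within libraries by exact sign flips over libraries. Shares carry 95% Clopper-Pearson intervals, which cover counting error only. Regions and genes were named by fixed rules (at most 5 regions for each comparison, the 4 genes of each list with most libraries, and the genes named by the study), and a few further ones, such as Polr2a and the histone and mitochondrial genes, after their values were seen. The members, rules and 17 gene lists were chosen with earlier results of these data known. The code was tested on simulated peaks. Lists were checked for duplicates: at most 2.33% of the CDS intervals of a list recurred in another, over 78 pairs. Alternatives were leaving out each replicate, the 1703 batch only, a replicate block, summits coding in every transcript, other overlap, window, enrichment, exon and transcript settings, and all peaks as denominator.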

Additional observations from a re-analysis of the deposited data

How the results depend on the processing

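Of 223 values of the main results under alternatives, 193 kept their direction and their side of the threshold or stayed within the counting interval. With 2 or 3 libraries a group, the tests between groups could not pass 0.05 and say nothing about stability. With the shortest coding transcript the mean position against the midpoint was -0.015 and no longer passed. The number of regions turned to -0.041 (WT ESC against WT EB) in the 1703 batch. Leaving out 1 library gave these ranges of differences: CDS share -12.5 to -6.17 points (TKO ESC), -20.5 to -15.3 (WT EB) and -7.24 to 2.89 (Tet2deltaRBD-KI ESC, reversed without its replicate 2); log2 number of regions -0.035 to 0.87, -0.17 to 1.45 and 0.37 to 1.21; log2 FE against 3′ UTR peaks -0.19 to -0.11, past 0.05 without TKO ESC replicate 2 (p = 0.0391, exact permutation) or WT EB replicate 3 (p = 0.0312). Shares of replicated regions with no peak in the other group moved most. Leaving out 1 library, they were 17.4 to 22.8% for WT ESC without TKO ESC, 25.7 to 32.8% for WT ESC without WT EB, 0 to 19.8% for TKO ESC without WT ESC, 2.50 to 24.0% for WT EB without WT ESC, 43.1 to 71.2% for Tet2-KI ESC without Tet2deltaRBD-KI ESC and 30.1 to 61.0% for the reverse. In the 1703 batch the first 4 were 27.8, 34.3, 21.2 and 26.3%. With an FE of at least 5, WT ESC without WT EB was 14.9%, TKO ESC without WT ESC 6.78% and WT EB without WT ESC 0% (0 of 15). Counting any overlapping peak as present gave 33.8% for Tet2-KI ESC without Tet2deltaRBD-KI ESC. Fewer or more libraries change what counts as replicated, and the causes of the other changes were not tested. The labels do not state that a number pairs libraries, though WT ESC and TKO ESC of 1 number carry the same prefix. The correlation of same-numbered deviations ran from -0.0118 to 0.182, and not every pair exceeded 0.1. Each library correlated best with its own number between WT ESC and TKO ESC, but not between WT ESC and WT EB, and with a replicate block the CDS share differed by -10.3 (p = 0.25, exact permutation, the smallest possible), -17.1 (p = 0.25) and -2.17 points (p = 1), with no call changed. An alternative chosen after seeing the data, the coding bases of the same transcripts as baseline, gave an excess of long exons of 8.06 points (p = 0.000244, exact permutation, the smallest possible). Of 55 named regions under 3 alternatives, 14 of 165 values moved by more than 1.5 times. Depth is unknown, so a missing peak sets no limit on 5hmC.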

Other observations

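A few CDS regions were mitochondrial. The mitochondrial chromosome held 14 CDS regions in 6 genes, all subunits of respiratory complexes. The region present in the most libraries was in mt-Nd5, a subunit of complex I, with a peak in 7 libraries and a mean FE of 2.05, and one in mt-Nd4 had a peak in 5 libraries at a mean FE of 2.38. All 14 were present in a Tet2-KI ESC library, but 13 of these in only 1 of the 2 libraries. There were 4 in a Tet2deltaRBD-KI ESC library, 3 in a WT ESC library, 2 in a WT EB library and none in a TKO ESC library. Of all 4469 CDS regions, 2321 were present in a Tet2-KI ESC library, 1322 in Tet2deltaRBD-KI ESC, 1581 in WT ESC, 1490 in WT EB and 1321 in TKO ESC. The mitochondrial windows held from 49 to 60% pyrimidines, above the median of 38.5% over all full windows.

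Early differentiation genes had 7 regions in 5 of 30 genes (16.7%, against 11.7% of all coding genes). Nes, an intermediate filament of neural progenitors, had 3 regions, each present in a different single library, of which 2 were WT ESC and 1 Tet2deltaRBD-KI ESC. Krt8, a keratin of simple epithelia, and Sox17, an endoderm transcription factor, had 1 region each, present in 1 WT EB library and 1 knock-in library.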
